A study of Mus musculus with 4 samples.

Results

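The cytosolic ribosomal protein genes encode the proteins of the large (Rpl) and small (Rps) subunit of the cytosolic ribosome. They were chosen by symbol: Rpl or Rps followed by a number or by p, and Rpsa, without the Rps6k kinases, the pseudogene rows (-ps) and any symbol on more than 1 row. The rule gave 88 of the 23282 gene rows. Of these, 77 are standard parts of the ribosome, with 46 in the large and 31 in the small subunit. The other 11 are 10 paralogs or retrocopies (Rpl3l, Rpl7l1, Rpl10l, Rpl22l1, Rpl36al, Rpl37rt, Rpl39l, Rps4l, Rps27l and Rps27rt) and Rps19bp1, which binds Rps19 and is no ribosomal protein.

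A ribosome needs 1 copy of nearly every one of these proteins, joined to ribosomal RNA in the nucleolus and cytoplasm with the help of assembly factors. Most ribosomal protein mRNAs are among the most abundant of a cell and start with a run of pyrimidines, the 5′ terminal oligopyrimidine (TOP) tract, through which mTOR signalling and Larp1 set their translation. Their mRNA levels therefore do not give the rate at which the proteins are made. Dividing cells, such as those of the basal epidermis and the hair matrix, make many ribosomes.

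The samples were skin of adult C57BL/6 mice in 4 groups with 1 library each. They were Egr1-/- (KO) skin treated with house dust mite (HDM) cream, Egr1+/+ (WT) skin treated with HDM cream, Egr1-/- naive skin and Egr1+/+ naive skin. Before HDM, the shaved skin between ear and neck and both ears were wetted with sodium dodecyl sulfate (SDS), a detergent that breaks the skin barrier. A dose of 100 mg of cream followed, 2 times per week for 3 weeks. The naive libraries carry SDS as their treatment label, so all 4 groups share it if that label is complete. The knockout mice were offspring of intercrosses, typed by PCR, so the allele is inherited and not limited to 1 cell type of the skin. The labels do not say how many animals went into a library. With 1 library per group there was no replicate check, and no p-value is given for any difference between 2 libraries.

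Each library came from 500 ng of total RNA and was read near the 3′ ends of polyadenylated transcripts. The recovered totals ran from 9428717 to 10107315 reads. The libraries differed in more than their labels. Egr1 stood at a log2 level of 11.68 in KO HDM skin and 10.31 in WT HDM skin, and at 11.53 in KO naive skin and 11.02 in WT naive skin. These 3′ tags may lie outside the disrupted stretch and check no label, so the KO libraries are called KO-labelled. The male-specific transcript Ddx3y had 1 read in each HDM library, against 2430 reads in KO-labelled naive and 1925 reads in WT naive skin, so treatment and the sex-linked transcripts cannot be told apart. In KO-labelled naive skin, 336 genes had 0 reads where all other libraries had at least 50, against 0 to 5 such genes in those libraries. All 5 keratinocyte markers (Krt5, Krt14, Krt1, Krt10, Krtdap) were detected in every library and together held 1.48% of reads in KO-labelled HDM and 1.95% in WT HDM skin, against 0.424% in KO-labelled naive and 0.608% in WT naive skin. Singly, 3 of the 5 were higher with HDM by 2-fold or more in KO-labelled skin and 1 was lower, while in WT skin all 5 were higher. All 5 fibroblast markers were also detected throughout and held 0.527% and 0.686% of reads in KO-labelled and WT HDM skin, against 4.01% and 1.89% in KO-labelled and WT naive skin. The 11 salivary gland markers held at most 0.0111% in the HDM libraries, with 6 of them at 0 in KO-labelled HDM and only Smr2 at 0 in WT HDM skin, against 0.844% in KO-labelled naive skin (Lpo at 0) and 7.51% in WT naive skin. Of 9 cartilage markers, 5 (among them Col2a1) were at 0 in KO-labelled HDM skin, and the summed reads were 63 there, 14216 in WT HDM, 22455 in KO-labelled naive and 24763 in WT naive skin. The 6 hair markers summed to 36797 and 15836 reads in KO-labelled and WT HDM skin, against 239 (Krt31, Krt71, Krt85 and Krt27 at 0) and 139 reads in KO-labelled and WT naive skin. The part of cell composition in the differences reported for ribosomal protein genes was not tested. In such bulk tissue, fewer cells of a type and less RNA per cell cannot be told apart.

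The ribosomal protein genes together took nearly the same share of all reads in every library. They held 6.58% of reads in KO-labelled HDM, 6.38% in WT HDM, 6.37% in KO-labelled naive and 6.79% in WT naive skin, and counting error on each share was below 0.02 percentage points. These shares depend on the other reads, of which Rn45s alone held 2.65%, 4.82%, 1.31% and 1.80% in the same order. The salivary markers held 7.51% in WT naive skin. Shares without these reads were not computed. The median member stood at a log2 level of 12.24, 12.27, 12.25 and 12.29 in the same order. Of the 88 genes, 87 passed the expression filter, a mean log2 level above 5.11 over the 4 libraries, which 11600 genes passed. The exception was Rpl10l, a copy known from the mouse male germ line, with 0, 0, 1 and 0 reads in the same order. The split of summed reads between subunits differed more. Per read of the standard small-subunit genes there were 1.34 reads of the standard large-subunit genes in KO-labelled HDM and 1.33 in WT HDM skin, against 1.12 in KO-labelled naive and 1.14 in WT naive skin. In WT skin much of this lay in Rplp1 and Rps20, the large-subunit and the small-subunit gene with the highest mean level. Without these genes the ratios were 1.35 in WT HDM and 1.31 in WT naive skin. In KO-labelled skin most of the difference remained without them, with ratios of 1.39 in KO-labelled HDM and 1.21 in KO-labelled naive skin. Gene by gene, the median HDM minus naive difference was 0.13 for large-subunit and 0.10 for small-subunit genes in KO-labelled skin, and -0.12 and 0.00 in WT skin.

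Tags near the 3′ end count transcripts once, so levels are compared here per transcript and were not divided by length. Rps20, a small-subunit protein of the head, had the highest mean level, with log2 levels of 15.31 in KO-labelled HDM, 15.15 in WT HDM, 15.17 in KO-labelled naive and 15.95 in WT naive skin. Its WT naive library was the highest and the other 3 lay close together. Rplp1, an acidic protein of the stalk, came next with 15.40 and 15.48 in KO-labelled and WT HDM skin, against 14.29 and 14.89 in KO-labelled and WT naive skin. Both HDM libraries of Rplp1 lay above both naive libraries. The 10 most abundant members of each library held 38.2%, 35.7%, 37.6% and 43.2% of all member reads in KO-labelled HDM, WT HDM, KO-labelled naive and WT naive skin, and 7 genes were among the 10 in all 4 libraries.

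**Figure D1:**
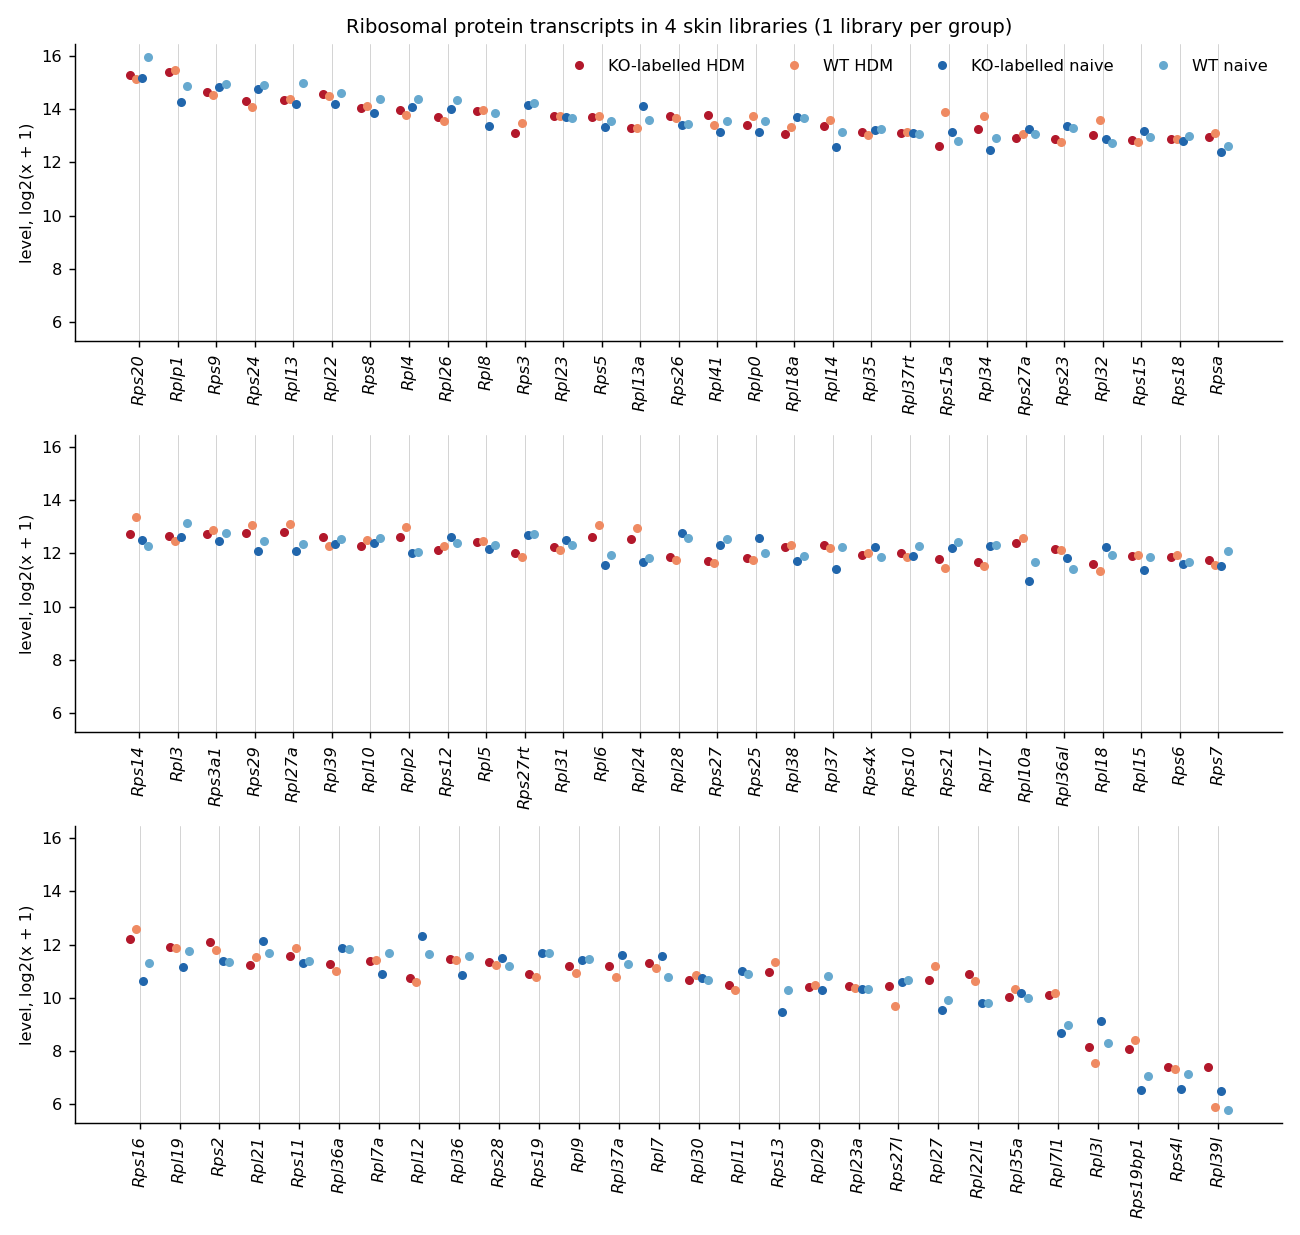
Log2 level (vertical axis, log2 of scaled reads plus 1) of the measured ribosomal protein genes except 1 that is not reported here, ordered by mean level from the top left, with 1 point per library. Most genes lie within a narrow band across the 4 libraries, while Rps16, Rps13, Rpl12 and Rps19bp1 show HDM libraries (red and orange) apart from naive libraries (blue).

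The difference between the highest and the lowest of the 4 libraries had a median of 0.78 on the log2 scale over the 87 measured members. Over all measured genes it was 1.21, and over the 2318 genes with a mean log2 level above 9.67, the 5th percentile of the members, it was 0.88. This set has only a lower bound, and most of its genes are less abundant than a middle member. Rpl28, with rank 44 among the members by mean level, had rank 201 among all genes. Members were not compared with genes of equal abundance. Of the members, 75.9% spanned less than 1 log2 unit, against 57.5% of the 2318 genes and 38.6% of all measured genes. The most even were the retrocopy Rpl37rt with a span of 0.07, Rpl23 with 0.09 and Rpl23a with 0.12, named here after their values were seen. The widest spans were 1.97 for Rps16, 1.89 for Rps19bp1 and 1.86 for Rps13.

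HDM skin was first set against naive skin within each genotype. The ribosomal protein genes did not move as a block: in KO-labelled skin the median HDM minus naive difference of the 87 genes was 0.13 (SD over genes 0.67), against 0.06 for all measured genes (SD 1.89). In WT skin the median was 0.00 (SD 0.64), against 0.03 for all measured genes (SD 1.21). In KO-labelled skin 9 members were higher by 2-fold or more, where the background over all measured genes was 21.7%, and 2 were lower, where it was 18.2%. In WT skin 9 members were higher, with a background of 14.5%, and 1 was lower, with a background of 12.7%. Past 2-fold in either direction were 12.6% of members in KO-labelled and 11.5% in WT skin. Of the 2318 genes above a mean log2 level of 9.67, 26.1% and 22.1% were.

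**Figure D2:**
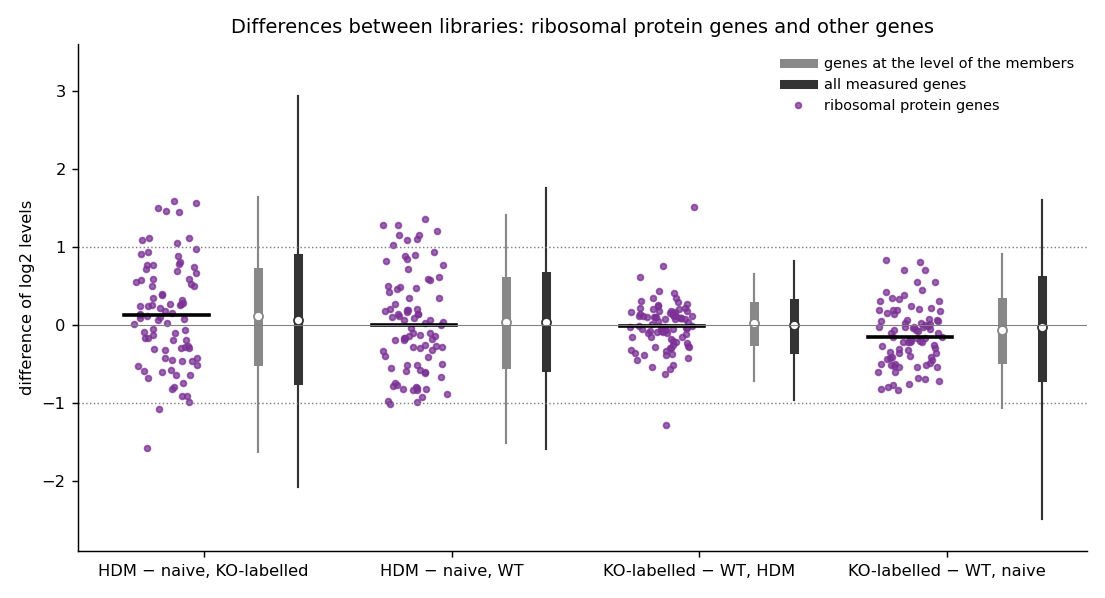
Difference of log2 levels (vertical axis) of each of the 87 measured ribosomal protein genes (purple points, black line at the median) in the 4 comparisons. Beside them are the genes with a mean log2 level above 9.67 (grey) and all measured genes (black). Both sets are drawn as the 5th to 95th percentile (thin line), the quartiles (thick line) and the median (open circle). Dotted lines mark 2-fold. Every member lies between the 5th and 95th percentile of all measured genes in 3 comparisons, and in the comparison of genotypes under HDM Rpl39l and Rps15a lie beyond them.

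The differences of single genes were alike in both genotypes. Of the 87 genes, 67 (77.0%) differed in the same direction in both, against 66.3% of all measured genes. Across the genes, the KO-labelled and the WT difference had a Pearson r of 0.76 and a Spearman rho of 0.76, against 0.52 and 0.45 across the 11600 measured genes. Most measured genes are less abundant than the members. No value in this paragraph was computed for the 2318 genes above a mean log2 level of 9.67, so abundance is not matched here. The 2 differences share no library, genes are not independent replicates, and the sex-linked, keratinocyte, fibroblast, salivary and hair levels given above differed between HDM and naive libraries in both genotypes. In 34 members (39.1%) both HDM libraries lay above both naive libraries, where the background was 30.2%, and in 29 members (33.3%) both lay below, where it was 26.8%. Past 2-fold in both genotypes, 6 of the 87 members were higher, a share close to the background of 7.06%. They were Rps16, Rps13, Rpl27, Rpl6, Rpl7l1 and Rps19bp1. Only Rpl12 was lower in both, a share of members below the background of 6.71%. No member was past 2-fold in opposite directions.

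**Figure D3:**
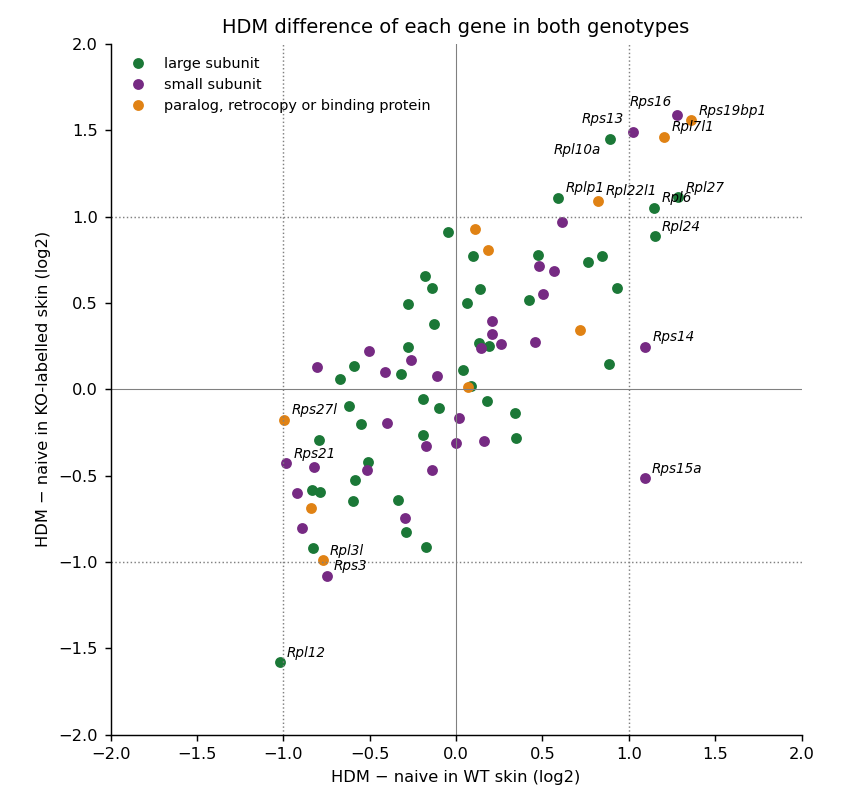
HDM minus naive difference of each measured ribosomal protein gene in WT skin (horizontal axis, log2) and in KO-labelled skin (vertical axis, log2), coloured by subunit. Rps16, Rps13, Rpl27, Rpl6, Rpl7l1 and Rps19bp1 lie beyond the dotted 2-fold lines at the upper right, Rpl12 lies beyond them at the lower left, and Rps15a stands alone at the lower right.

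Among small-subunit genes, Rps16, whose tail reaches the transfer RNA that holds the growing chain, had log2 levels of 12.22 in KO-labelled HDM and 12.60 in WT HDM skin, against 10.63 in KO-labelled naive and 11.32 in WT naive skin. Both HDM libraries were well above both naive libraries. The HDM to naive ratio was 3.01 in KO-labelled skin, with a 95% counting interval of 2.85 to 3.18, and 2.43 in WT skin, with an interval of 2.32 to 2.55. The gene lies at chr7:28350652-28353155 on the plus strand. Rps13, another small-subunit protein, had 10.96 and 11.33 in KO-labelled and WT HDM skin, against 9.46 and 10.30 in KO-labelled and WT naive skin. Again the HDM and naive libraries did not overlap, with the lowest level in KO-labelled naive skin. Rps13 (chr7:116331505-116334195, minus strand) had an HDM to naive ratio of 2.82 in KO-labelled (2.59 to 3.06) and 2.03 in WT skin (1.90 to 2.18).

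Among large-subunit genes, Rpl27, in which variants cause the red cell disorder Diamond-Blackfan anaemia in human, had log2 levels of 10.65 in KO-labelled HDM and 11.19 in WT HDM skin, against 9.54 in KO-labelled naive and 9.91 in WT naive skin. The groups did not overlap, and the fold was 2.16 in KO-labelled (1.99 to 2.36) and 2.44 in WT skin (2.26 to 2.64). The gene spans chr11:101442298-101445529 on the plus strand. Rpl6 (chr5:121204481-121209241, plus strand) had 12.62 and 13.07 in KO-labelled and WT HDM skin, against 11.57 and 11.93 in KO-labelled and WT naive skin. Its ratio was 2.07 in KO-labelled (1.99 to 2.16) and 2.22 in WT skin (2.13 to 2.31).

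Rpl12, which sits with Rplp0 at the base of the stalk where elongation factors bind, went the other way. Its log2 levels were 10.75 in KO-labelled HDM and 10.61 in WT HDM skin, against 12.33 in KO-labelled naive and 11.63 in WT naive skin. Both HDM libraries lay below both naive libraries, and KO-labelled naive skin had the highest level. It was 2.99-fold lower with HDM in KO-labelled (2.83 to 3.15) and 2.03-fold lower in WT skin (1.91 to 2.16). Rpl12 lies at chr2:32961559-32965345 on the plus strand. All gene spans are those of protein-coding genes in the GENCODE annotation of GRCm38, the assembly also called mm10.

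The bases around the transcription start are shown for these 5 genes because they were the standard members past 2-fold in both genotypes, and for Rpl27a and Rpl28 as members with long pyrimidine runs that differed in opposite directions. Each window runs from 30 bases before the start to 20 bases from it on, and is given 5′ to 3′ on the gene's strand from RefSeq on GRCm38.p6, with the longest pyrimidine run that begins with C and touches the 20 bases on either side of the start in capitals.
Rps16, chr7:28350659-28350708: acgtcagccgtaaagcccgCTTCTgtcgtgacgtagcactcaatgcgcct
Rps13, chr7:116334171-116334220: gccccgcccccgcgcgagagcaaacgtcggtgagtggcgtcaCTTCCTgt
Rpl27, chr11:101442215-101442264: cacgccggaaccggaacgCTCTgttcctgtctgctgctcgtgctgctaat
Rpl6, chr5:121204471-121204520: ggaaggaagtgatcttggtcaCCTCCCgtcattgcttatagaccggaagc
Rpl12, chr2:32961682-32961731: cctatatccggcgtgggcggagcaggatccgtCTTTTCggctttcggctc
Rpl27a, chr7:109519165-109519214: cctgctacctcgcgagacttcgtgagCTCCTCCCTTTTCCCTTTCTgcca
Rpl28, chr7:4792935-4792984: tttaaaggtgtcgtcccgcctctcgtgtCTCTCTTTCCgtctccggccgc
The run is 4 to 6 bases in the first 5 windows, 20 bases in Rpl27a and 10 bases in Rpl28. RefSeq and GENCODE differ in where these genes start. The GENCODE span of Rpl27 begins 53 bases after the RefSeq start, so the whole Rpl27 window lies before it, while the spans of the other 6 begin before the RefSeq start. Those of Rps16, Rpl12, Rpl27a and Rpl28 begin before their windows, and those of Rps13 and Rpl6 begin inside them. The runs were searched at the RefSeq starts only.

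RefSeq promoter windows of 300 bases, 250 before the start and 50 from it on, were at hand for 67 of the 88 members. A run of 8 or more pyrimidines near the start was present in 33 of the 67 (49.3%), in 30 of 57 standard members (52.6%) and in 0 of the 5 genes past 2-fold in both genotypes, against 20.8% of the 8835 measured genes with a window and 19.1% of all 27025 genes with one. Of standard members at least 0.5 log2 units higher with HDM in both genotypes (13 genes, a smaller threshold set for this count), 4 of 10 with a window had the run, and of those at least 0.5 lower (9 genes) 4 of 8 had it. The letters TTCCGG, the core of the site bound by ETS factors, were found on either strand of 53.7% of member windows, against 30.8% of measured and 16.7% of all windows. The letters CTTTCC were found on either strand of 53.7%, against 30.8% and 29.3%, and the 2 motifs can overlap in CTTTCCGG. The letters GCGTGGGCG, the site known for Egr1, were searched on both strands after the windows had been seen. They were present in 1 of the 67 member windows (1.49%), against 1.37% of measured and 0.707% of all windows. That member was Rpl12, where the letters lie 20 to 12 bases before the RefSeq start and inside the GENCODE span of the gene, shown here in capitals.
Rpl12, chr2:32961682-32961711: cctatatccgGCGTGGGCGgagcaggatcc
A match of letters is a description of these windows and not a binding site.

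Of the stalk proteins, which recruit the elongation factors to the ribosome, Rplp0 was the most even. Its log2 levels were 13.40 and 13.74 in KO-labelled and WT HDM skin, against 13.15 and 13.55 in KO-labelled and WT naive skin, and the groups overlapped. Rplp1, with the levels given above, had an HDM to naive ratio of 2.16 in KO-labelled (2.12 to 2.19) and 1.51 in WT skin (1.48 to 1.53). Rplp2, which pairs with Rplp1, had 12.62 and 12.98 in KO-labelled and WT HDM skin, against 12.04 and 12.05 in KO-labelled and WT naive skin. Its HDM libraries lay above its naive libraries by 1.50-fold in KO-labelled and 1.91-fold in WT skin, and with the reads of its copy Rplp2-ps1 added the KO-labelled difference was 0.11 in place of 0.59 on the log2 scale. The large-subunit gene Rpl10a, which forms the side protuberance where spent tRNA leaves, had a ratio of 2.73 in KO-labelled (2.60 to 2.87) and 1.86 in WT skin (1.78 to 1.94). Rpl24, a protein of the contact between subunits, had ratios of 1.85 in KO-labelled and 2.22 in WT skin. On the small subunit, Rpsa, also known as the laminin receptor, had ratios of 1.47 in KO-labelled and 1.42 in WT skin. Rps27a, which is made as a fusion with ubiquitin, had levels between 12.93 and 13.24 in all 4 libraries. Rps3, which lines the channel where mRNA enters, was 2.11-fold lower in KO-labelled (2.06 to 2.16) and 1.68-fold lower in WT skin (1.64 to 1.72). Rps19, the gene most often altered in human Diamond-Blackfan anaemia, had differences of -0.80 in KO-labelled and -0.89 in WT skin, within 2-fold.

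Values just past 2-fold and just within it lay close together. In KO-labelled skin the nearest past 2-fold were Rpl6 with 1.05 and Rps3 with -1.08, and the muscle paralog Rpl3l lay just within it with -0.99. In WT skin the nearest past 2-fold were Rps13 with 1.02 and Rpl12 with -1.02, and the nearest within it were Rplp2 with 0.93 and Rps27l with -0.997. Rps21 (-0.98) and Rps27 (-0.92) followed. Rps27 and its retrocopy Rps27rt had nearly the same levels in every library, and so had Rpl34 and Rpl34-ps1, so reads of each pair may have been divided between near-identical sequences and their separate values are uncertain.

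Rps15a was the member whose HDM difference was most unlike between genotypes. Its log2 levels were 12.62 in KO-labelled HDM and 13.90 in WT HDM skin, against 13.14 in KO-labelled naive and 12.81 in WT naive skin. WT HDM skin was the highest library and KO-labelled HDM skin the lowest. With HDM it was 1.43-fold lower in KO-labelled skin (1.39 to 1.47), whereas in WT skin the HDM to naive ratio was 2.13 (2.07 to 2.20). Its pseudogene row Rps15a-ps6 stood at 11.87, 11.02, 11.00 and 10.39 in KO-labelled HDM, WT HDM, KO-labelled naive and WT naive skin, with KO-labelled HDM skin the highest. With its copies added, the difference between KO-labelled and WT HDM skin was -0.77 in place of -1.28 on the log2 scale, inside 2-fold. Rps14, another small-subunit gene, had a ratio of 1.19 in KO-labelled skin (1.15 to 1.23) and 2.14 in WT skin (2.06 to 2.21).

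Rpl7l1, the paralog of Rpl7, had log2 levels of 10.12 and 10.17 in KO-labelled and WT HDM skin, against 8.65 and 8.96 in KO-labelled and WT naive skin. The ratio was 2.76 in KO-labelled (2.47 to 3.09) and 2.31 in WT skin (2.07 to 2.58). Rps19bp1 had 284 and 311 reads in KO-labelled and WT HDM skin, against 96 and 123 reads in KO-labelled and WT naive skin, which gives ratios of 2.97 (2.35 to 3.78) and 2.58 (2.09 to 3.21). In mouse, Rpl22 is known to hold down its paralog Rpl22l1. Rpl22l1 had 7.67 and 6.92 reads per 100 reads of Rpl22 in KO-labelled and WT HDM skin, against 4.67 and 3.58 in KO-labelled and WT naive skin, while Rpl22 itself kept log2 levels between 14.20 and 14.62. The HDM to naive ratio of Rpl22l1 was 2.13 in KO-labelled (1.97 to 2.31) and 1.77 in WT skin (1.63 to 1.93).

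Rpl36al had 186 and 215 reads per 100 reads of its X-linked counterpart Rpl36a in KO-labelled and WT HDM skin, against 97.9 and 73.3 in KO-labelled and WT naive skin. Its own difference was 0.34 in KO-labelled and 0.72 in WT skin, and that of Rpl36a was -0.58 and -0.84, all within 2-fold. The other X-linked members, Rpl10, Rpl39 and Rps4x, had HDM differences between -0.30 and 0.24. Rpl3l, the striated muscle paralog of Rpl3, had 8.15 and 7.53 in KO-labelled and WT HDM skin, against 9.14 and 8.31 in KO-labelled and WT naive skin. The KO-labelled naive library was the highest for Rpl3l, and the 6 skeletal muscle markers, all detected in every library, had summed log2 levels of 14.74 and 14.44 in KO-labelled and WT HDM skin, against 15.04 and 14.42 in KO-labelled and WT naive skin. Their part in the Rpl3l values was not tested. Rps27l, a target of p53, had 10.43 in KO-labelled HDM, 9.68 in WT HDM, 10.60 in KO-labelled naive and 10.67 in WT naive skin, so WT HDM skin stood below the other 3 libraries.

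**Figure D4:**
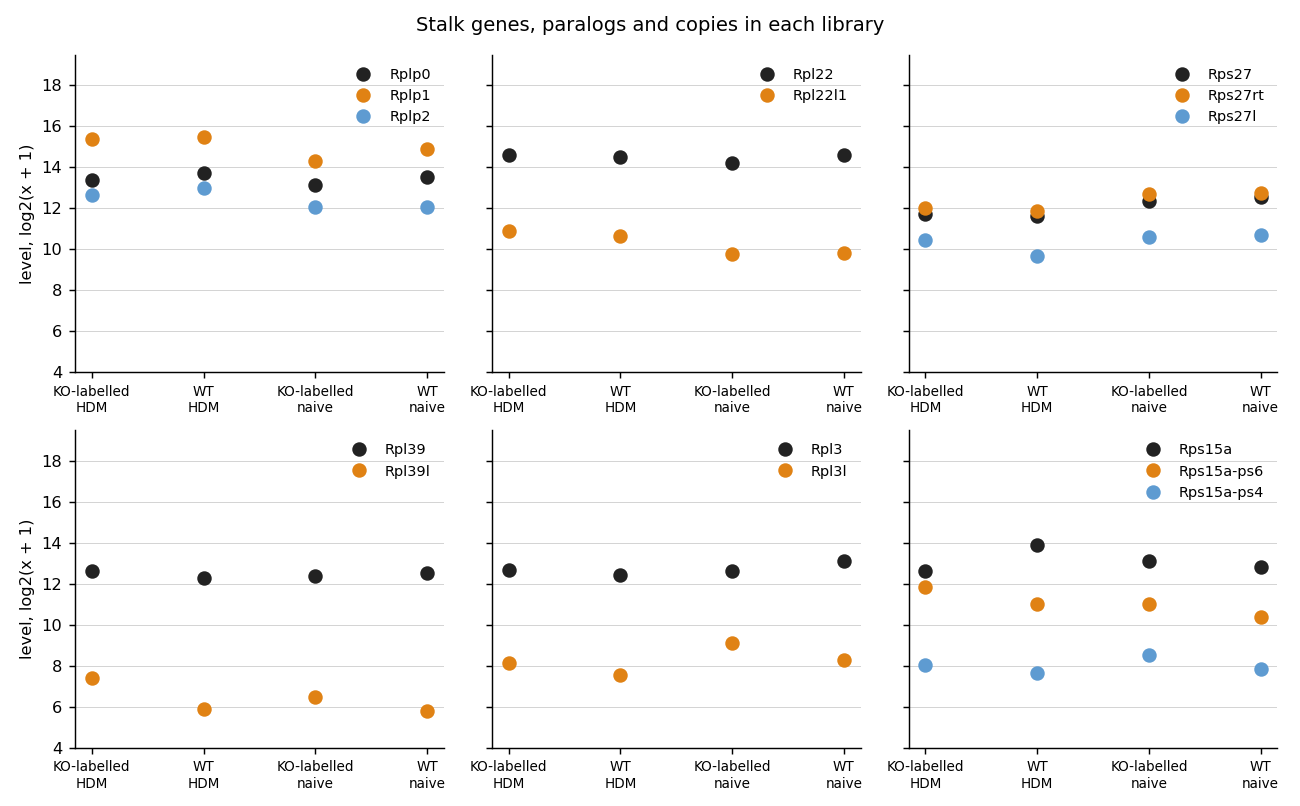
Log2 level (vertical axis) in each of the 4 libraries (horizontal axis) of the stalk genes and of 5 standard genes with their paralogs, retrocopies or pseudogene rows. Rplp1 and Rpl22l1 lie higher in both HDM libraries than in both naive libraries, while Rps15a and Rps15a-ps6 have opposite orders in the HDM libraries.

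KO-labelled skin was then set against WT skin under the same treatment. Under HDM, the median difference of the 87 genes was -0.02 (SD over genes 0.33), against -0.01 for all measured genes. The testis-enriched Rpl39l was higher by 2-fold or more, with a background of 3.06%, and Rps15a was lower, with a background of 4.66%. Rpl39l had 179 reads in KO-labelled HDM and 54 in WT HDM skin, a fold of 2.89 (2.12 to 3.99), against 94 in KO-labelled naive and 51 in WT naive skin. The next on the higher side were Rps27l with a log2 difference of 0.75, Rpl3l with 0.61, Rpl37a with 0.43 and Rpl41 with 0.41, and on the lower side Rps14 with -0.64, Rpl32 with -0.56, Rpl27 with -0.54 and Rpl34 with -0.52.

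In naive skin, the median difference between KO-labelled and WT was -0.15 (SD 0.39), against -0.03 for all measured genes. Lower in KO-labelled skin were 56 of 87 members, against 5990 of the 11600 measured genes and 1282 of the 2318 genes above a mean log2 level of 9.67. No member was higher by 2-fold or more, with a background of 13.6%, and none was lower, with a background of 17.1%. Among the 2318 genes above a mean log2 level of 9.67, 10.1% were past 2-fold. The lowest were Rps13 with -0.84, Rpl37 with -0.82, Rpl7a with -0.80, Rps20 with -0.78 and Rpl13 with -0.76, and the highest were Rpl3l with 0.83, Rpl7 with 0.81, Rpl12 with 0.70, Rpl39l with 0.70 and Rps25 with 0.55. When the reads of its retrocopy Rpl37rt were added, the Rpl37 difference was -0.22 in place of -0.82. With reads scaled to each library's total (CPM) in place of the deposited scale, the members' median was -0.03. The median of all measured genes moved up by 0.12 to 0.09, so the members' median lay below it on both scales.

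A limma fit of all 4 libraries with treatment and genotype as terms, which assumes that the 2 add up and leaves 1 residual degree of freedom per gene, gave 1 member past an adjusted p of 0.05 for HDM. This was Rps16, with a term of 1.44 (SE 0.31, adjusted p = 0.03795 by limma with Benjamini-Hochberg over 11600 genes), where the background was 2.25% of genes higher and 1.87% lower. Rpl12 had -1.30 (SE 0.32, adjusted p = 0.06159 by limma). At an unadjusted p under 0.05 there were 20 of 87 members for HDM (23.0%), close to the 2367 of 11600 genes (20.4%). The call of Rps16 was lost without the intensity trend, without the filter, and with HDM as the only term. Of the 8.95 degrees of freedom behind each SE, 7.95 were drawn from the spread across all measured genes. The 1 residual degree holds the departure from additivity and not the spread between animals. The HDM term cannot be told apart from the sex-linked transcripts given above. For the KO term, limma called 0 of 87 members, with a background of 0% of genes higher and 0% lower, and at an unadjusted p under 0.05 there were 0 members and 381 of the 11600 genes.

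Genes that make, help or steer the ribosome were taken from fixed lists chosen with earlier results of these data known. The 44 ribosome assembly factors had median HDM minus naive differences of 0.61 in KO-labelled and 0.83 in WT skin. Past 2-fold, 18 of them (40.9%) were higher in KO-labelled skin, against 21.7% of all measured genes, and 1 was lower, against 18.2%. Without Ltv1 and Nle1, which had 0 reads in KO-labelled naive skin, 16 were higher. In WT skin 15 (34.1%) were higher, against 14.5% of all measured genes, and 0 lower, against 12.7%. Among them, Eif6, which keeps the subunits apart until the large one is mature, was higher by 1.58 and 3.14 log2 units in KO-labelled and WT skin. Nop16 was higher by 1.99 and 1.56, and the nucleolar helicase Ddx21 by 1.73 and 1.53. Of 16 RNA polymerase I genes, in KO-labelled skin 4 (25%) were higher and 2 lower, and in WT skin 3 (18.8%) were higher and 1 lower (medians 0.60 and 0.59), shares of higher genes close to those of all measured genes. Of 25 measured initiation factors, 6 (24%) were higher in KO-labelled and 9 (36%) in WT skin, with none lower (medians 0.63 and 0.53). Of all measured genes, 21.7% and 14.5% were higher and 18.2% and 12.7% lower in KO-labelled and WT skin, so the KO-labelled share of higher factors was close to that. Eif6 is on this list too. Of 75 measured mitochondrial ribosomal protein genes, 15 (20%) were higher and 4 (5.33%) lower in KO-labelled, and 11 (14.7%) higher and 3 (4%) lower in WT skin (medians 0.39 and 0.34). Their shares of higher genes were at the level of all measured genes, and their shares of lower genes were below it.

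The 18 elongation factors and other mRNAs with a TOP tract had medians of 0.19 in KO-labelled and 0.22 in WT skin, closer to those of the ribosomal protein genes. In KO-labelled skin 3 of them (16.7%) were higher and 1 was lower, and in WT skin 1 (5.56%) was higher and 0 lower. Pabpc1, the poly(A)-binding protein, was higher by 1.09 and 1.51 log2 units in KO-labelled and WT skin. Of 18 measured genes of growth control, in KO-labelled skin 6 (33.3%) were higher and 3 (16.7%) lower, and in WT skin 1 (5.56%) was higher and 2 (11.1%) lower (medians 0.10 and -0.22). Rptor, with 0 reads in KO-labelled naive skin, is 1 of these 6, and without it 5 were higher. For both lists the background is that of all measured genes with HDM. It was 21.7% higher and 18.2% lower in KO-labelled skin, and 14.5% higher and 12.7% lower in WT skin. The shares of lower growth control genes were close to it. Larp1, which binds TOP tracts, was higher by 0.88 in KO-labelled and 1.38 in WT skin, and the mTOR inhibitor Tsc2 was lower, with -2.45 and -2.12. Fau and Gnb2l1 (the older symbol of Rack1), ribosome parts whose symbols fall outside the rule, were within 2-fold in all 4 comparisons. Between KO-labelled and WT skin the lists from assembly factors to growth control had medians between -0.14 and 0.08 under HDM and between -0.09 and 0.15 in naive skin. Single genes of these lists differed both ways in naive skin, where 6 assembly factors were higher and 7 lower in KO-labelled than in WT skin (5 lower without Ltv1 and Nle1), 8 mitochondrial ribosomal protein genes were higher and 8 lower, and 0 growth control genes were higher and 4 lower, with Rptor among them. All measured genes had 13.6% higher and 17.1% lower there. The keratinocyte, hair and fibroblast marker levels given above moved between the same libraries as these lists, and their part was not tested.

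**Figure D5:**
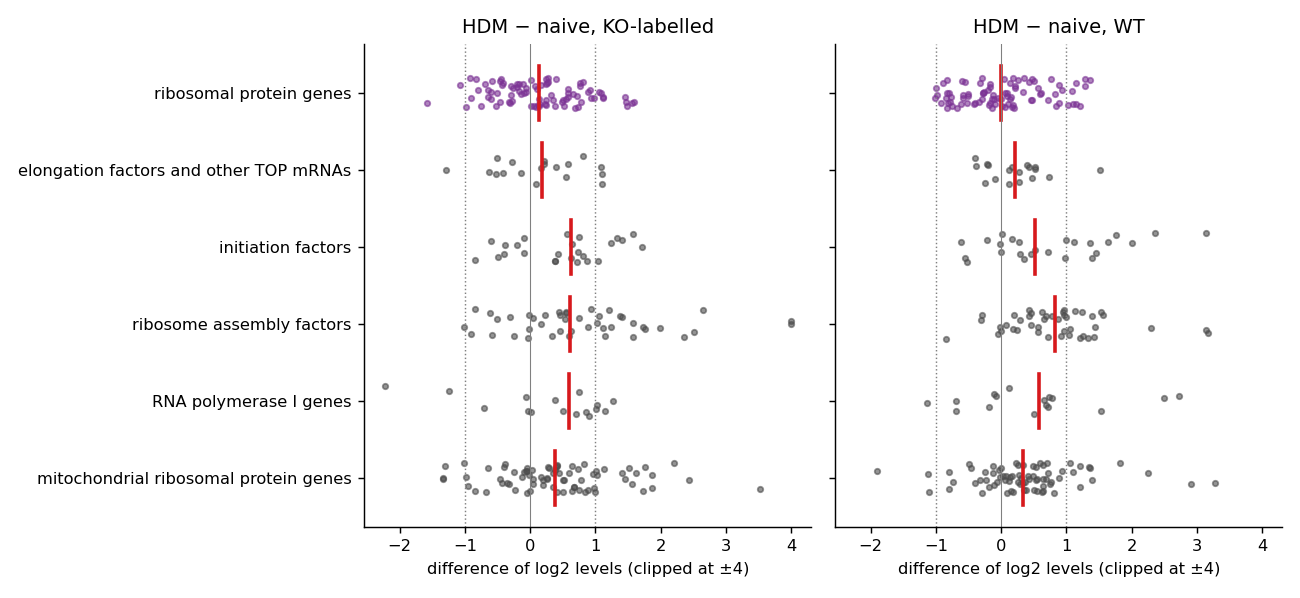
HDM minus naive difference of log2 levels (horizontal axis, values beyond 4 drawn at 4) of ribosomal protein genes and 5 lists of related genes in KO-labelled skin (left) and WT skin (right), with 1 point per gene and a red line at the median. The median of ribosome assembly factors is 0.61 and 0.83, that of ribosomal protein genes 0.13 and 0.00.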

How the data were processed

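The authors deposited 1 table per library with log2 values for 23282 gene rows, written with 3 decimals. The submitters' processing notes name Bowtie2, bedtools and mm10 but give no version or role, and the normalization is not given in the sources used here. Low values of 2 to the power of the deposited log2 value, minus 1, were whole multiples of 1 step, which was 0.939 in KO-labelled HDM, 1.08 in WT HDM, 0.936 in KO-labelled naive and 1.06 in WT naive skin. The deposited values are therefore log2(x + 1) of scaled reads, and dividing by the step gave reads (98.8%, 98.9%, 96.2% and 99.3% of values up to 200 were whole within 0.1). Higher read numbers are approximate because of the 3 decimals. The recovered totals were 10107315, 9428717, 9926595 and 9592300 reads in the same order. Reads without molecular identifiers are not independent molecules, so the exact 95% intervals of ratios (Clopper-Pearson, given the summed reads) cover counting error only.

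Symbols on more than 1 row (35 symbols on 79 rows), 7 pseudogene rows and 10 Rps6k rows were left out of the members. Differences are of deposited log2 values, and a call is a difference of 1 or more (2-fold). No replicate test was possible, and limma 3.58.1 (R 4.3.3), with eBayes and an intensity trend, gave the additive fit. Tables were made with Python 3.11.15, pandas 2.3.3, numpy 2.4.6 and scipy 1.17.1. The members, lists and rules were chosen with earlier results of these data known. Genes were named by role (stalk, Rpsa, Rps27a, paralogs, Rps19bp1), as the 5 highest and 5 lowest of a comparison, past 2-fold, or 1 log2 unit from the members' median. A few items are not reported here. Alternatives were other scalings, filters, pseudocounts and member sets, and summing copies was chosen after seeing the data.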

Additional observations from a re-analysis of the deposited data

Results flagged for a closer look

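Rps15a was the only measured member that was past 2-fold in 1 genotype and differed in the opposite direction in the other. Its HDM minus naive difference was -0.52 on the log2 scale in KO-labelled skin and 1.09 in WT skin, so that the KO-labelled difference minus the WT difference was -1.61. The difference between genotypes was not tested, since each group holds 1 library. With the reads of Rps15a-ps6 and Rps15a-ps4 added, the 2 differences were -0.15 and 1.01.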

How the results depend on the processing

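No paired analysis was possible because each group holds 1 library, and for the same reason no library could be left out of a comparison. Of the alternative values, 33 moved: a count by more than 1.5 times, or a median by more than the counting error of the summed member reads, since no replicate spread exists. Smaller moves of counts were 9 higher members becoming 6 to 8 and 2 lower becoming 3 (median centring) for HDM in KO-labelled skin, and 9 higher becoming 7 or 8 in WT skin, with 6 and 7 in standard members only. No median on the deposited scale was past 2-fold, so no median could reverse a call, and a count has no direction to reverse. Some medians changed sign, as the values below show. In the values that follow, the full set of members on the deposited scale is the starting point. For HDM in KO-labelled skin (median 0.131), the median was 0.072 with median centring, 0.1003 with CPM (counts scaled to the library total), 0.108 with CPM without Rn45s and salivary genes, 0.123 with no filter, 0.107 with the filter at the 75th percentile and 0.115 in standard members only. For HDM in WT skin (median -0.002), it was -0.032 with median centring, -0.0763 with CPM without Rn45s and salivary genes, -0.073 with the 75th percentile filter, -0.101 in standard members only, -0.045 without members that have a pseudogene row and 0.017 with copies summed, and the members lower by 2-fold or more numbered 3 in place of 1 with either of the first 2. For KO-labelled against WT under HDM (median -0.016), it was -0.009 with median centring, 0.0826 with CPM, 0.0501 with CPM without Rn45s and salivary genes, -0.028 in standard members only and 0.011 without members that have a pseudogene row. There the count of higher members was 0 with the 75th percentile filter or in standard members only, which leave out Rpl39l, and the count of lower members was 0 without members that have a pseudogene row or with copies summed. For naive skin (median -0.153), it was -0.119 with median centring, -0.0286 with CPM, -0.138 with CPM without Rn45s and salivary genes, -0.130 with no filter, -0.130 with the 75th percentile filter, -0.171 in standard members only and -0.160 without members that have a pseudogene row. The single HDM call of the additive fit was 0 without the intensity trend, 0 without the filter and 0 with only the tested factor in the model. A change of scale moves all genes of a library. With CPM the median of all measured genes moved too, by 0.0948 for KO-labelled against WT under HDM and by 0.121 in naive skin. For HDM in KO-labelled skin it moved by -0.0318. Where the alternative changes neither the members nor the scale, the cause was not tested. Depth limits mainly Rpl39l, Rps4l and Rps19bp1, whose counting intervals were the widest for HDM in KO-labelled skin.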
